A study of Mus musculus with 3 samples.

Results

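Peaks of the forkhead transcription factor Foxf2 that sit at the 3' ends of transcripts were examined in the developing mouse tongue. A peak was taken when its midpoint lay from 100 bp upstream to 1000 bp downstream of the 3' end of an annotated GENCODE basic transcript, outside exons, and outside the stretch from 1000 bp upstream to 100 bp downstream of every transcription start site (TSS). The rule uses position alone, and 473 of the 25704 peaks on the main chromosomes of mm10 met it (1.84%, exact 95% interval 1.68 to 2.01). They lay at the ends of 463 genes.

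Chromatin came from tongues of E12.5 embryos homozygous for an endogenous Foxf2 gene edited with CRISPR/Cas9 to carry a 3xFLAG epitope. The series had 2 libraries precipitated with an anti-FLAG antibody and 1 input library without antibody, all from the same genotype, stage and tissue, and the labels name 75 tongues on each sample without saying whether these were pooled. No FLAG precipitation from untagged embryos was analysed here, and the tissue label names embryonic tongue cells with no cell type, which the table, having no expression values, cannot check. The table holds 1 value per peak for the whole series, so every p-value below describes this list of peaks and not a difference between libraries or embryos, and the read depth behind a peak is unknown.

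Forkhead factors bind DNA through a winged-helix domain that reads an A/T-rich core, and Foxf2 is known for its expression in mesenchyme of the face, palate and tongue. The 3' end of a protein-coding transcript is made by cleavage and polyadenylation, usually just behind the poly(A) signal AATAAA, and RNA polymerase runs on past it before it stops. The signal and the forkhead core share letters, because a core that starts with ATAAA becomes AATAAA when an A stands before it. Small nuclear RNA genes are compact units, transcribed from their own promoters, whose 3' ends are formed without polyadenylation.

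The peaks that carry the results are shown first, as the central 200 bp of the GRCm38 (mm10) sequence along the direction of the transcript, 5' to 3', with each forkhead core in capitals (GTAAACA or GTAAATA or ATAAACA or ATAAATA, or the reverse complement of one of these). Gas1 (chr13:60173617-60173816, minus strand) and Tcf21 (chr10:22816404-22816603, minus strand) had the highest scores outside Hdac9. 2810442N19Rik (chr1:162017043-162017242, plus strand) was 1 of the 12 highest and holds no core. H2af-ps (chr5:35918643-35918842, plus strand), Dnd1-ps (chr5:13880653-13880852, plus strand) and Zfp212 (chr6:47933197-47933396, plus strand) are 3 of the 6 peaks with 4 cores, and the last pair shows cores set at a regular step.
Gas1: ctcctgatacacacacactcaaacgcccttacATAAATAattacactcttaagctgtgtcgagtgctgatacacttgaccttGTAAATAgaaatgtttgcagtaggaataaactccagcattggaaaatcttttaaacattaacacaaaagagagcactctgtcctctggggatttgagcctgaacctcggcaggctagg
Tcf21: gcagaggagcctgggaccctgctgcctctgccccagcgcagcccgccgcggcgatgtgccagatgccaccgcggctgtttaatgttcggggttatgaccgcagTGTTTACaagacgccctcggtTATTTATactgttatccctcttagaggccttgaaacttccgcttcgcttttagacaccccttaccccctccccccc
2810442N19Rik: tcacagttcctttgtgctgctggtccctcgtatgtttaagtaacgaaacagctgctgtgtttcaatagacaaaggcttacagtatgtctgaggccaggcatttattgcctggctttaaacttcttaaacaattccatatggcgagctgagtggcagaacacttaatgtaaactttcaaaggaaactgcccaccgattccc
H2af-ps: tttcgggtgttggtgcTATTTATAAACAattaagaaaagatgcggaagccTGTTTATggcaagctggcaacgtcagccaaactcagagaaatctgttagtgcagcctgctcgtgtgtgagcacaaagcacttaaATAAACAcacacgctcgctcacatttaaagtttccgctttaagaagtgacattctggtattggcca
Dnd1-ps: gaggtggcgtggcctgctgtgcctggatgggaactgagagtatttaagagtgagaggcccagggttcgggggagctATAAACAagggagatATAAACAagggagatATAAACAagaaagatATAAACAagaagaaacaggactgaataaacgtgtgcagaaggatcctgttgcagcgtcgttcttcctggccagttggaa
Zfp212: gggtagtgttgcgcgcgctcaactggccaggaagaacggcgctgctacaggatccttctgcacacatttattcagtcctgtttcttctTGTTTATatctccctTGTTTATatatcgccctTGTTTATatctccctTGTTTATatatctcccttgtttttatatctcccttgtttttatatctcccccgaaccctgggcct

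Single cores with 10 bases to either side are shown for 4 genes, on the strand that reads the core. These short sites were picked after their values were seen. They are from Hdac9 (chr12:34052339-34052365, plus strand), Twist1 (chr12:33959924-33959950, plus strand), Bmp7 (chr2:172867711-172867737, plus strand) and Ptch1 (chr13:63508107-63508133, minus strand). The Hdac9 core lies 51 bp before its transcript end, inside the transcript, in a peak with 57 bases in exons. The cores of Twist1, Bmp7 and Ptch1 lie 108, 288 and 208 bp behind theirs.
Hdac9: ttctgtaaaaATAAACAggcaatcaga
Twist1: ggggactaatATAAACAaagaagtgaa
Bmp7: tatgttagcaGTAAACAcagctaattt
Ptch1: caaattcagtGTAAACAcaagtgaccc

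Transcript ends held peaks at about the density of the list as a whole. The 473 peaks fell in 51.7 Mb of sequenced bases that meet the same rule, or 9.16 peaks per Mb (exact 95% Poisson interval 8.35 to 10.02), against 9.71 per Mb for all peaks. These bases make up 1.95% of the sequenced genome. Introns held 11.2 peaks per Mb, intergenic sequence 7.49 and promoters 32.5.

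The median peak midpoint lay 423 bp downstream, with a range from 89 bp upstream to 998 bp downstream. The first 500 bp held 260 peaks at 9.97 per Mb (interval 8.79 to 11.3) and the next 500 bp held 209 at 8.20 per Mb (interval 7.12 to 9.39). These intervals overlap, which does not show that the densities are equal, and their difference was not tested. The highest bin of 100 bp downstream, at 300 to 400 bp, had 12.3 per Mb (interval 9.47 to 15.7) and the lowest, at 800 to 900 bp, had 6.72 (interval 4.65 to 9.39). These 2 bins were picked for their values and were not tested. Just inside the outer limit, at 900 to 1000 bp, the density was 6.89 per Mb, and from 1000 to 2000 bp, outside the rule, it was 8.61 per Mb (interval 7.81 to 9.47). Upstream of the end, where few bases are outside exons, 4 peaks (Hdac9, Gdpd4, AC161456.1 and 5730522E02Rik) lay in 0.0823 Mb, or 48.6 per Mb (interval 13.2 to 124), the highest density of any bin and the one that rests on the fewest peaks.

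**Figure D1:**
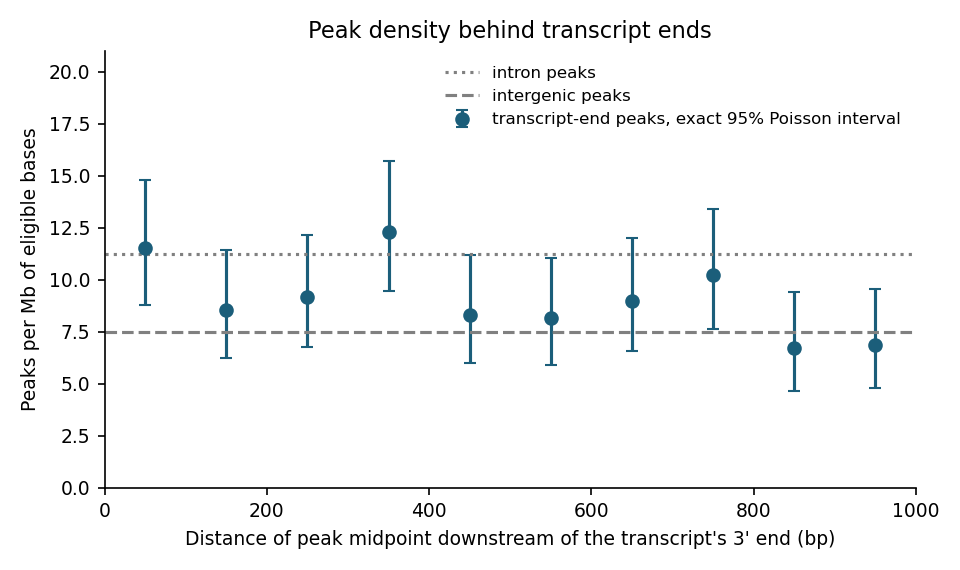
Peaks per Mb of eligible bases against the distance of the peak midpoint downstream of the nearest 3' end, in bins of 100 bp, with exact 95% Poisson intervals as bars and the densities of intron (11.2) and intergenic (7.49) peaks as lines. The bins run from 6.72 to 12.3 peaks per Mb, and the intervals of the highest (300 to 400 bp) and the lowest (800 to 900 bp) do not overlap.

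Density also differed between kinds of transcript. Ends of long noncoding RNAs (lincRNA, antisense and related types) held 164 peaks in 10.4 Mb, or 15.8 per Mb (interval 13.5 to 18.5), and ends of protein-coding transcripts held 168 in 21.2 Mb, or 7.94 per Mb (interval 6.78 to 9.24). Ends of pseudogenes had the lowest density of the large groups, 4.48 per Mb (interval 3.40 to 5.81). Small RNA genes had 9.96 per Mb (interval 7.35 to 13.2), and transcripts of the class TEC, which the annotation sets aside for experimental checking, had 12.8 (interval 9.08 to 17.6). The intervals of long noncoding RNA ends and protein-coding ends do not overlap. A peak in reach of more than 1 kind of end is counted in each here, and is assigned below to its nearest end.

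By position, 292 of the 473 peaks lay outside all transcripts, 142 in an intron of another gene and 39 in an intron of the gene whose end they neighbour, behind a shorter transcript. At protein-coding ends, 123 of 165 were outside all transcripts, and at long noncoding RNA ends 88 of 162. An exon reached into the edge of 71 peaks. Within reach of 2 or more genes were 16 peaks, 8 of them with ends on both strands. The nearest TSS of any transcript was a median of 3.706 kb away, against 18.011 kb for the other peaks; the rule keeps peaks beside annotated transcripts, so this distance is not independent of it. It was within 1 kb for 84 peaks and within 5 kb for 271.

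The forkhead core was found in 347 of 473 transcript-end peaks (73.4%, exact 95% interval 69.1 to 77.3), and 72.5% of the whole list has it. The share at the other 25231 peaks was 72.5%, an odds ratio of 1.04 (95% interval 0.850 to 1.28, two-sided Fisher's exact test with Benjamini-Hochberg adjustment over 8 comparisons, adjusted p = 0.818). No difference was detected within that interval. GTAAACA alone was in 27.3% of the transcript-end peaks, with 27.4% in the whole list and an odds ratio of 0.992 (interval 0.809 to 1.22, Fisher's exact test, adjusted p = 0.959).

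Against their own surroundings the difference was large. Windows of equal width 2000 bp towards the gene held the core in 15.4% of cases and those 2000 bp farther downstream in 16.5%, so that the peak share was 4.60-fold the mean of the flanks (exact McNemar test, the larger p of both sides adjusted over 13 motifs, adjusted p = 6.48e-62). GTAAACA was in 1.69% and 3.38% of the flanks, a 10.8-fold difference (exact McNemar test, adjusted p = 4.38e-25). Peaks of the whole list stood 3.95-fold over their flanks for the core and 9.04-fold for GTAAACA.

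Cores stood near the middle of the peaks. Of 483 matches in transcript-end peaks, 58.4% lay within 20 bp of the peak centre, and of the matches in other peaks 58.0% did. The most common form was ATAAACA with 220 matches (45.5%), then GTAAACA with 137 (28.4%), ATAAATA with 74 (15.3%) and GTAAATA with 52 (10.8%). In other peaks these forms took 44.6%, 29.4%, 15.7% and 10.3%. There was 1 match in 240 peaks, 2 in 84, 3 in 17 and 4 in 6, and none in 126.

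**Figure D2:**
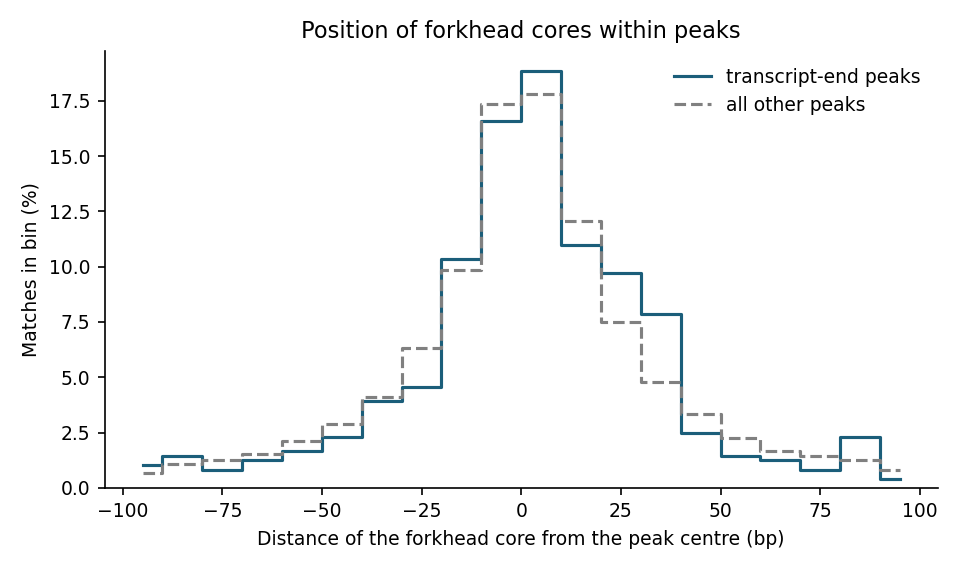
Share of all forkhead core matches by distance from the peak centre in bins of 10 bp, for transcript-end peaks (solid line, 483 matches) and all other peaks (dashed line, 25237 matches). Both lines are highest within 10 bp of the centre and fall on either side.

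AATAAA was counted next because ends of protein-coding transcripts usually carry it as a signal. That signal lies before the 3' end, while the median peak midpoint was 423 bp downstream. Only the 60 peaks at 0 to 100 bp and the 4 upstream of the end have 200 bp windows that reach the end. The counts below therefore cannot show whether these ends carry the signal. It was in 37.2% of transcript-end peaks, 36.1% of all peaks, 23.0% of the windows towards the gene and 21.1% of those farther downstream (1.68-fold over the flanks, exact McNemar test, adjusted p = 1.08e-05). Counted only outside forkhead cores, which it can overlap, AATAAA was in 18.8% of transcript-end peaks, 19.9% of gene-side windows and 17.8% of downstream windows (exact McNemar test, adjusted p = 0.738). TATAAA was in 131 peaks (27.7%) against 65 and 59 flanks (exact McNemar test, adjusted p = 5.05e-07), and in 25.7% of all peaks. Outside cores it was in 58 peaks (12.3%) against 52 and 45 flanks (exact McNemar test, adjusted p = 0.725). Counting outside cores was added after the data were seen.

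AATAAA stood on the strand of the transcript in 98 peaks and on the opposite strand in 93, in the same windows, most of which do not reach the end. A forkhead core that continues the poly(A) signal was in 19.2% of transcript-end peaks and 20.1% of the others, an odds ratio of 0.948 (interval 0.753 to 1.19, Fisher's exact test, adjusted p = 0.818). Of the 226 core matches on the transcript strand 48 were of this kind, as were 54 of the 257 on the opposite strand. Among the 240 peaks with exactly 1 core, it was on the transcript strand in 104 (43.3%, exact 95% interval 37.0 to 49.9, two-sided exact binomial p = 0.0452). At protein-coding ends alone, 31 of 88 were on that strand (35.2%, interval 25.3 to 46.1, exact binomial p = 0.00734). Among peaks over 5 kb from any TSS it was 42.5% (exact binomial p = 0.145), and for GTAAACA alone 47.5% (exact binomial p = 0.651).

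Other motifs above both flanks were E-boxes and the CTCF core. CATCTG, an E-box read by Twist-class factors, was in 137 of the 473 peaks (29.0%) against 61 gene-side and 59 downstream flanks (2.28-fold, exact McNemar test, adjusted p = 2.13e-08), and in 28.0% of all peaks of the list. CAGCTG, an E-box read by myogenic and neural factors, was in 20.9% against 13.1% and 8.67% (1.92-fold, exact McNemar test, adjusted p = 0.00235), with 18.7% over the list. The CTCF core was in 12 peaks (2.54%), with 0 and 1 matches in the flanks (exact McNemar test, adjusted p = 0.00635) and 1.43% over the list. In all, 7 of 13 motifs searched on both strands (53.8%) passed the test, all higher in the peaks, and 5 did when AATAAA and TATAAA were counted outside cores. TGACAG (of TALE factors), GGAATG (of TEAD factors), CCAAT and the promoter box GGGCGG, the downstream element TGTGTG and the AP-1 sequence TGANTCA did not pass, with folds from 0.776 to 1.58. A match is a run of letters and not a shown binding site.

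The scores of transcript-end peaks ran from 10.1 to 181.9 with a median of 15.6, and the list median is 16.2. Above the list median were 46.5% of them and 49.7% of the others (odds ratio 0.880, interval 0.733 to 1.06, Fisher's exact test, adjusted p = 0.713). The highest-scored decile of the list held 47 of them (9.94%). When only ends of protein-coding transcripts were taken, 64 of 168 peaks (38.1%) were above the list median, an odds ratio of 0.622 (interval 0.455 to 0.850, Fisher's exact test, adjusted p = 0.0252), and 58.9% were above the list's median GC content (odds ratio 1.53, interval 1.12 to 2.08, Fisher's exact test, adjusted p = 0.0331). Protein-coding ends had a median score of 14.5 and long noncoding RNA ends one of 16.8. The scores at protein-coding ends ran from 10.1 to 181.9 and those at long noncoding RNA ends from 10.1 to 73.3, so the ranges overlap, with 4 protein-coding ends (Hdac9, Gas1, Tcf21 and Gm5447) above all long noncoding RNA ends.

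**Figure D3:**
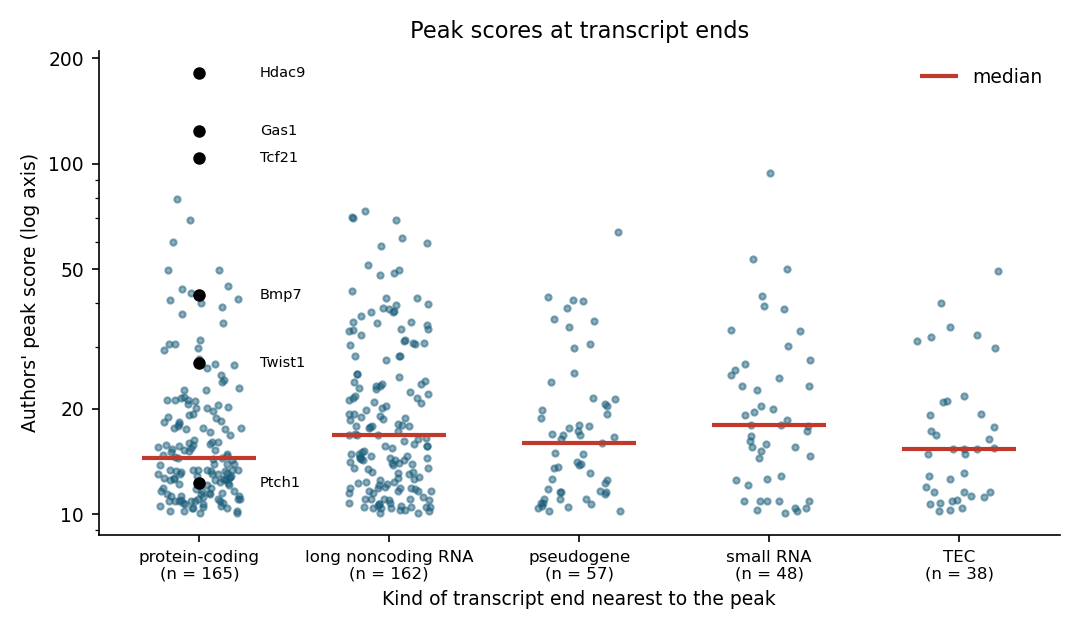
The authors' peak score on a log axis for the transcript-end peaks of the 5 kinds of end with at least 10 peaks (3 peaks at immunoglobulin or T cell receptor segments are left out), with red lines at the medians and 6 named protein-coding genes in black. Medians of these 5 run from 14.5 at protein-coding ends to 17.9 at small RNA ends, while Hdac9 (181.9), Gas1 (124.1) and Tcf21 (104.0) stand above all other transcript-end peaks.

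Other features of the whole group differed little from the rest of the list. The median focus ratio was 0.780 (list 0.783) and the median GC content 44.0% (list 43.5%). Above the list medians of these were 48.2% and 50.5% of transcript-end peaks, with odds ratios of 0.949 and 1.08 (intervals 0.791 to 1.14 and 0.904 to 1.30, Fisher's exact test, adjusted p = 0.818 for both). Of the other peaks outside promoters and exons, 44.7% were above the median GC content. Against these the odds ratio was 1.26 (interval 1.05 to 1.52), which did not pass after adjustment (Fisher's exact test, adjusted p = 0.106). Another peak lay within 10 kb of 182 (38.5%), against 36.6% of the others (odds ratio 1.08, interval 0.898 to 1.30, Fisher's exact test, adjusted p = 0.818). At least 50% of the bases were repeat-masked in 25 peaks (5.29%) and in 3.25% of the others (odds ratio 1.66, interval 1.11 to 2.50), which did not pass after adjustment (Fisher's exact test, adjusted p = 0.149).

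Among the transcript-end peaks, the core was more frequent in those of higher score. It was in 185 of 235 peaks above their own median score (78.7%) and in 162 of 238 at or below it (68.1%), an odds ratio of 1.74 (interval 1.15 to 2.63, Fisher's exact test adjusted over 4 comparisons, adjusted p = 0.0376). Without the peaks within 5 kb of a TSS the odds ratio was 1.67 and no longer passed (Fisher's exact test, adjusted p = 0.441). It did not pass under 5 other settings either. The odds ratio stayed above 1 in each of these, and most of them left fewer peaks, so they do not show that the difference is absent. Of the peaks with a score of at least the list median, 79.7% of those at transcript ends and 78.4% of the others had the core. Over all scores these shares were 73.4% and 72.5%. Whether the rise at transcript ends differs from that over the rest of the list was not tested. Protein-coding and other ends had the core in 73.3% and 73.4% (odds ratio 0.998, interval 0.651 to 1.53), and intronic peaks and those outside all transcripts in 72.9% and 73.6% (odds ratio 0.965, interval 0.635 to 1.47). Peaks nearer than 500 bp and farther had it in 74.6% and 71.8% (odds ratio 1.16, interval 0.768 to 1.74), and none of these 3 passed (Fisher's exact test, adjusted p = 1).

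The ends of small RNA genes held a group in which few peaks had a forkhead core. It was noticed in these values, so its shares are given without a test. Within the first 100 bp behind a small RNA end lay 15 peaks, 11 at small nuclear RNAs, 3 at small nucleolar RNAs and 1 at n-TStga1, which the annotation types as a microRNA. Only 4 of these 15 had a forkhead core (26.7%, exact 95% interval 7.79 to 55.1). Small RNA ends 100 bp and farther away had it in 26 of 33 (78.8%, interval 61.1 to 91.0), and other ends within the same first 100 bp in 35 of 45 (77.8%, interval 62.9 to 88.8). Shares were also lower near a TSS in general. Promoter peaks of the list had the core in 60.1% (interval 58.0 to 62.2). Transcript-end peaks within 1 kb of any TSS, which include these 15, had it in 69.0% (interval 58.0 to 78.7).

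The 15 peaks, of which 4 have a core, were not weak. Their scores ran from 12.9 to 50.1 with a median of 24.5, against medians of 15.6 for small RNA ends farther away and 13.4 for other ends in the first 100 bp. Gm25360 scored 38.6 at 31 bp, Gm25313 scored 33.5 at 54 bp and Gm22068 scored 33.3 at 42 bp behind the end of their small nuclear RNAs, and none of the 3 had a core. Rnu1a1, a gene of the U1 RNA that recognises 5' splice sites, scored 24.5 at 33 bp, and Rnu5g, a gene of the U5 RNA that aligns exons, scored 25.0 at 35 bp, also without a core. Rnu2-10, a gene of the U2 RNA that pairs with the branch point, scored 12.9 at 44 bp without one. Gm24407, with 2 cores, had the highest score of the 15, 50.1 at 62 bp.

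**Figure D4:**
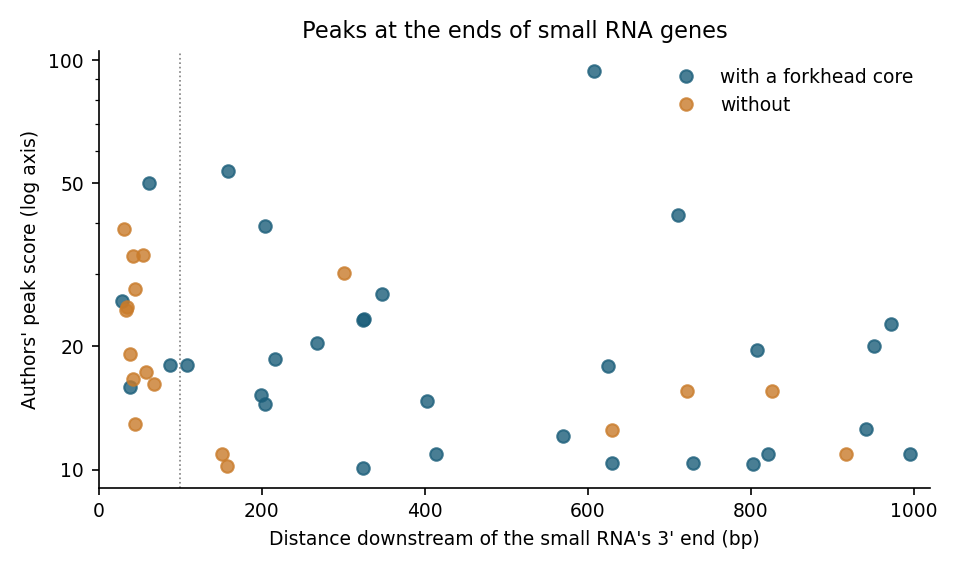
The authors' score (log axis) against the distance behind the 3' end for the 48 peaks nearest to a small RNA end, blue with and orange without a forkhead core, with a dotted line at 100 bp. Of the 15 peaks left of the line 11 are without a core, and of the 33 right of it 7 are.

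The small RNA peaks differ from other transcript-end peaks also in what surrounds them. All 15 overlap the annotated RNA gene at their edge, since the gene ends within reach of the peak, and all 20 peaks at small nuclear RNA ends lie within 1 kb of a TSS. Of the 48 peaks at small RNA ends 42 do so, but 6 of 165 at protein-coding ends. This nearness is not independent of the rule. Small RNA genes are short, so a peak just behind the end also lies close to the gene's own TSS (0.196 kb at Rnu1a1). Several of these peaks resemble each other in sequence: the windows at Rnu3b4 and Rnu3b2, genes of the U3 RNA that acts in ribosomal RNA processing, align with 78.6% identity over 192 columns, and those at Gm25360 and Gm24497 with 82.5% over 114. How reads that match several copies were placed is not given in the sources used here, so single values at such genes are uncertain. The 4 U3 genes in an intron of Tex14 scored 53.5 (Rnu3b3), 27.6 (Rnu3b1), 17.3 (Rnu3b4) and 16.2 (Rnu3b2), and only the first has a core. The part of read placement and of nearness to a TSS in the missing cores was not tested.

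**Figure D5:**
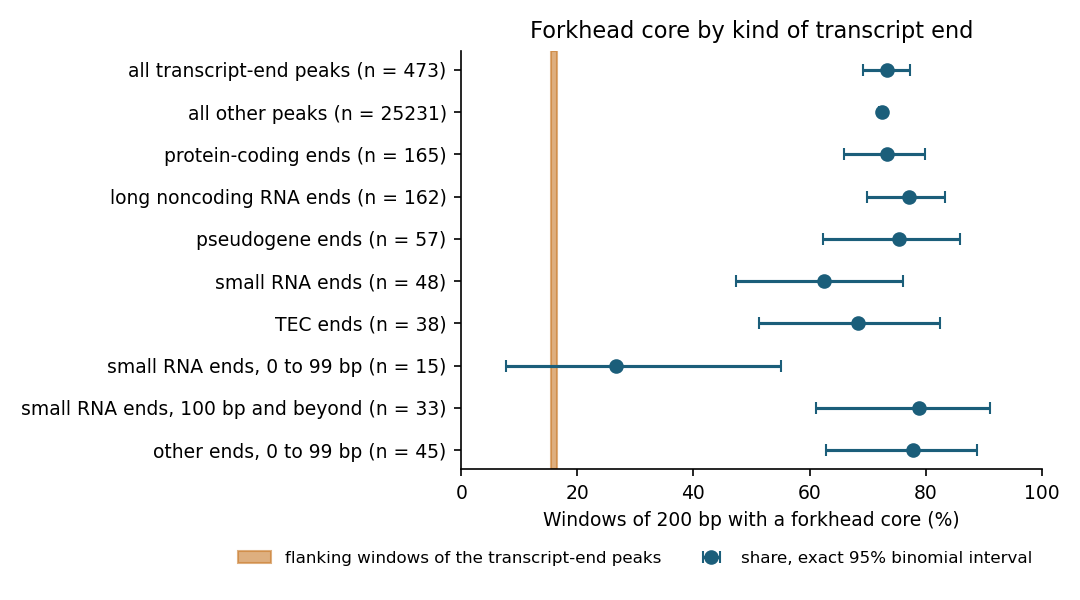
Share of 200 bp windows with a forkhead core, with exact 95% binomial intervals, for transcript-end peaks by kind of end, and the shares of their flanks (15.4% and 16.5%) as an orange band. Most groups lie between 62.5% and 78.8%, and small RNA ends within 100 bp lie at 26.7%.

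Repeats gave a second small group. Dnd1-ps, a processed pseudogene, had 4 ATAAACA cores whose starts are 15, 15 and 15 bases apart, in a window that is wholly repeat-masked, with a score of 29.8 and the highest focus ratio of all transcript-end peaks, 0.955. Zfp212, a zinc finger gene, had 4 cores on the opposite strand at steps of 15, 17 and 15 bases, a score of 15.2 and a focus ratio of 0.932. Both windows printed above align with 76.8% identity over 181 columns. In the other windows with 4 cores the steps were uneven, as in H2af-ps with 5, 29 and 84 bases, except at Gm13094, where overlapping cores start 4 bases apart in a window that is 86.0% repeat-masked. In the whole list 250 peaks have 4 or more cores, and in 71 of them at least 3 steps are within 2 bases of the first.

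Of the protein-coding genes, 161 of 21938 (0.734%) had a transcript-end peak. The 749 annotated genes of the lists drawn up for tongue development and its controls had 16 (2.14%). Regulators of mesenchyme had 5 of 102, the hedgehog pathway 2 of 22, growth factors of the FGF, PDGF, IGF, EGF, HGF and VEGF families with their receptors and effectors 3 of 67, and TGF-beta and BMP signalling 1 of 52. WNT signalling had 1 of 62, muscle 1 of 51, neural crest, glia and neurons 1 of 25, ribosomal proteins 1 of 76 and 3' end processing 1 of 22. None was found at the ends of 41 forkhead genes, 20 Notch genes, 70 adhesion and guidance genes, 80 matrix genes, 27 epithelial genes and 35 cell cycle genes. With so few genes per list, these counts describe the lists and do not rank them. Of the 161 genes, 16 also had a promoter peak (9.94%, exact 95% interval 5.79 to 15.6), and 7.64% of all protein-coding genes have one.

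The strongest transcript-end peak was at Hdac9, a class II histone deacetylase known from muscle. Its score of 181.9 was rank 12 of the whole list, and it lay 89 bp before the end of a transcript inside the gene. It held 3 cores, at 51, 142 and 168 bp before that end. Hdac9 neighbours Twist1, the basic helix-loop-helix regulator of cranial mesenchyme, and the TSS of Twist1 was the nearest one of any other gene, 94.719 kb from the peak. Twist1 had its own transcript-end peak 114 bp behind its 3' end, with a score of 27.1 and 2 cores, both on the transcript strand.

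The hedgehog pathway had a peak at 2 genes. Gas1, a membrane co-receptor for hedgehog ligands, had a peak 688 bp behind its end with a score of 124.1, rank 65, and 2 cores of the forms GTAAATA and ATAAATA. Ptch1, the receptor and itself a target of the pathway, had one 210 bp behind its end, with 1 GTAAACA core 2 bp from the centre and a score of 12.3, rank 19227. The Ptch1 peak had 8 other peaks within 50 kb, and the Gas1 peak had 1.

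Tcf21, a basic helix-loop-helix factor of branchial muscle precursors and visceral mesenchyme, had a peak of score 104.0, rank 137, 777 bp behind its end. Its window holds GTAAACA and ATAAATA 21 bases apart on the opposite strand. The peak also lies in an intron of the noncoding gene Gm10824, 0.755 kb from that gene's TSS, so its assignment to the end of Tcf21 is not the only one possible. Snai1, a repressor of epithelial genes, and Id2, an inhibitor of basic helix-loop-helix factors, had peaks of 19.0 at 693 bp and 17.5 at 396 bp, both without a core.

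Among secreted signals, Bmp7, a bone morphogenetic protein, scored 42.2 at 280 bp with 1 GTAAACA core 8 bp from the centre. Fgf10, a mesenchymal growth factor of tongue and limb, scored 21.2 at 310 bp and had no core. Fgf1 (rank 19227 of the list by score) and Wnt8b (rank 18824) scored below the median of these peaks and had none. Flt1, a VEGF receptor, scored 16.8 at 195 bp behind a short transcript within the gene, without a core. Bdnf, a neurotrophin, scored 22.7 at 925 bp with an ATAAATA core.

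Of the remaining list genes, Papola, the poly(A) polymerase of 3' end processing, scored 41.2 at 555 bp with an ATAAACA core and had no other peak within 50 kb. Tnnt3, a fast muscle troponin, scored 15.9 at 364 bp without one. Rpl4, a ribosomal protein, scored 15.5 at 895 bp with 1 core, and the TSS of Snapc5 was 0.287 kb away. In all, 9 of the 16 list genes had a core and 7 had none (56.2%), beside 73.3% at all protein-coding ends.

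Both sides of retinoic acid turnover were present, a pair picked after the values were seen. Aldh1a2, which makes retinoic acid, had a peak of score 37.2 at 209 bp with a GTAAACA core. Cyp26b1, which breaks it down, had one of 20.3 at 312 bp with 1 core, and had a promoter peak as well.

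The highest scores below Tcf21 were mostly at noncoding genes and pseudogenes. Ends of transcripts other than protein-coding ones hold 308 of all 473 transcript-end peaks. Gm26489, a small Cajal body RNA, scored 94.3 with 3 cores, Igkv8-18, an immunoglobulin segment, 81.0 with 1, and Gm5447, annotated as protein-coding, 79.4 with 2. The noncoding genes 1700049E22Rik, AC147219.2 and 2310015A10Rik scored 73.3, 70.7 and 70.1, and in the last a pair of cores on opposite strands overlaps. Cep41, a centrosomal protein, scored 69.2 with 1 core, 2810442N19Rik scored 69.0 with none, and the pseudogene Gm8748 scored 64.1 with 2. Of the 12 highest transcript-end peaks 11 had a core (91.7%), beside 73.4% of all transcript-end peaks and 72.5% of the whole list. These 12 were chosen by score. Among peaks with a score of at least the list median, 79.7% at transcript ends and 78.4% of the others had a core. No share was taken for other peaks of equally high score.

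Several genes had more than 1 peak at their ends. 1700094M23Rik had 3, with scores of 30.9, 14.3 and 11.1 at 219, 770 and 821 bp behind an end, the first pair behind the same one, and only the first had cores. The other 8 had 2 each: 9430014N10Rik, AC162612.1, Adra1a, Ankrd55, Cep41, Gm12468, Gm25939 and Zcchc3. At Adra1a, an alpha-adrenergic receptor, they lay at ends of different transcripts, with scores of 29.5 and 10.7, and the weaker had no core. At Zcchc3 the pair was 0.716 kb apart behind the same end, with scores of 19.2 and 15.8.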

How the data were processed

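Anti-FLAG ChIP-seq peaks of tagged Foxf2 from E12.5 mouse tongue were taken from the authors' deposited table of 25707 peaks. Per the submitters' processing notes, reads were aligned to mm10 with Bowtie2 2.4.1, handled with SAMtools 1.7.1 and peaks called against the input with HOMER. The sources used here give neither HOMER's version and settings nor the depth, nor whether ChIP libraries were pooled. The peak score is the authors' value as deposited, its scale unstated, and was used only to rank, describe or filter peaks. The last column, per the file headers a focus ratio or region size, was read as a fraction (the focus ratio), as every peak has the same width.

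Leaving out 3 peaks on an unplaced contig, the rest were set against GENCODE M21 basic transcripts and the GRCm38 sequence. The central 200 bp and windows 2000 bp to either side were searched for motifs on both strands. Exact McNemar, Fisher and binomial tests were two-sided with a threshold of 0.05, the first 2 adjusted by Benjamini-Hochberg within families and the binomial not adjusted, and were tested on simulated data. Members, motifs and gene lists were chosen with earlier results of these data known. Named genes are those of the 12 highest scores, the list genes with a peak, genes with 2 or more peaks and the 5 peaks with the most cores (6 tied here, all with 4), and sequences are of the first and last of these groups unless stated. The small RNA genes, those with like sequences, those with a peak upstream of the end and the retinoic acid pair fall outside this rule and were named after their values were seen. The peak of 1 list gene is counted but not reported here. Alternatives covered the end window, score, kind of end, distance to a TSS, clusters, motif window and form, flanks, comparison set and GC content. Intervals cover counting only. Tools were scipy 1.17.1, numpy 2.4.6, pandas 2.3.3, Biopython 1.88 and matplotlib 3.10.9 under Python 3.11.15.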

Additional observations from a re-analysis of the deposited data

How the results depend on the processing

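Of 137 values recomputed over 14 other settings, 95 kept their direction and call. The number of peaks was 264 with the window ending at 500 bp, 895 at 2000 bp, 222 with scores of at least the list median, 168 at protein-coding ends and 202 without those within 5 kb of a TSS. The odds ratio of the core between higher and lower scores no longer passed with the window to 500 bp (1.44), the score filter (1.29), protein-coding ends (1.57), peaks beyond 5 kb of a TSS (1.67), 1 peak per 10 kb cluster (1.63) or GTAAACA alone (1.40). The share of single cores on the transcript strand no longer passed with the window to 2000 bp (46.4%), the score filter (44.5%), peaks beyond 5 kb (42.5%), 1 peak per cluster (43.7%) or GTAAACA (47.5%). Called only under another setting were score (0.622) and GC content (1.53) at protein-coding ends and repeats (1.91) with 1 peak per cluster. The causes of these changes were not tested.

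Odds ratios near 1 crossed it without a call, as follows. The core against other peaks was 0.971 with the window to 2000 bp, 0.970 against peaks outside promoters and exons and 0.992 for GTAAACA alone. This narrower form against other peaks was, in its own comparison, 1.03 to 500 bp, 1.02 in 100 bp motif windows and 1.005 without small RNA ends (this last setting was chosen once the values were known). The focus ratio was 1.04 to 500 bp, 1.06 to 2000 bp and 1.02 beyond 5 kb, and GC content 0.953 to 500 bp and 0.896 with the score filter. A neighbouring peak was 0.946 to 2000 bp, 0.817 at protein-coding ends and 0.898 beyond 5 kb, and the core continuing AATAAA 1.13 at protein-coding ends and 1.24 beyond 5 kb. The core at protein-coding against other ends was 1.05 to 500 bp, 1.01 with 1 peak per cluster, 1.04 in 100 bp motif windows and 1.08 within GC deciles. In introns against outside it was 1.10 to 2000 bp and 1.06 with 1 peak per cluster, and nearer against farther 0.768 with the score filter.

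No paired analysis was possible because the table has no values per library. Leaving out each ChIP library, planned for all results, was not run for the same reason. Without depth or an untagged control, whether a weak or coreless peak would recur is unknown.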
